A study of Homo sapiens with 15 samples.

Results

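The cytosolic nucleic acid sensors are described here as 8 genes, found by their symbols among the 26485 genes of a count table from 15 RNA-seq libraries of leukemia cell lines. They are the RNA sensors IFIH1 (MDA5), DDX58 (RIG-I) and DHX58 (LGP2), their adaptor MAVS, the DNA sensor MB21D1 (cGAS), its adaptor TMEM173 (STING), and the DNA-binding proteins IFI16 and AIM2. All 8 were in the table, and all 8 were among the 17243 genes that passed the low-count filter. The rule that selects them is a list of names and uses no measured value, although the list was drawn up with earlier results of these data known.

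The libraries came from 2 human lines, ML1 and U937, both labelled as acute myeloid leukemia. Prexasertib is an inhibitor of the checkpoint kinase CHK1, LSN622666 is a compound given by a code name, and the diluent is the control. The 5 groups of 3 libraries were ML1 with 10 nM prexasertib, ML1 with diluent, U937 with 10 nM prexasertib plus 350 nM LSN622666, U937 with 10 nM prexasertib, and U937 with diluent, each for 24 h. All groups, the diluent ones included, also received the caspase inhibitor Q-VD-OPh at 5 µM. No group received LSN622666 alone, and the combination was given to U937 and not to ML1. A difference between ML1 and U937 is one between these lines and does not extend to other leukemia lines.

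RNA sensors of the RIG-I family detect double-stranded or uncapped RNA in the cytosol and signal through MAVS on mitochondria. The enzyme cGAS binds DNA and makes a cyclic dinucleotide that activates STING on the endoplasmic reticulum, and both routes switch on the kinases and transcription factors that induce type I and type III interferons. AIM2 binds cytosolic DNA and instead assembles an inflammasome with the adaptor ASC and caspase-1, while IFI16 binds DNA in the nucleus and the cytosol and has been linked to STING. In myeloid cells, which carry most of these proteins, several sensor genes are themselves induced by interferon.

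Library totals ran from 49011222 to 87301014 counts. Levels below are CPM, the reads of a gene relative to the scaled (TMM) library total, and the correlation of log2 CPM between replicates was 0.982 to 0.9937. The 10 myeloid markers were all detected in every group, with summed levels of 4905 to 6610 CPM in ML1 with prexasertib and 2067 to 2341 CPM in ML1 with diluent. In ML1 LYZ moved most in CPM, with a mean of 3627 CPM with prexasertib and 514 CPM with diluent. MPO had a lower mean with prexasertib (508 against 948 CPM), as did CEBPA (329 against 351 CPM), and the rest had higher means. In U937 the sums were 1083 to 1204 CPM with the combination, 895 to 1056 CPM with prexasertib and 1037 to 1258 CPM with diluent. Markers of other cell types (12 genes) summed to 264 to 356 CPM in ML1 with prexasertib and 68.7 to 76.1 CPM in ML1 with diluent, with most of it in PECAM1. Their sums in U937 were 185 to 206 CPM with the combination, 147 to 218 CPM with prexasertib and 226 to 265 CPM with diluent, with most of it in NKG7, while the T-cell markers CD3E and CD3D and the epithelial marker EPCAM were at 0 in every group. U937 prexasertib replicate 2 stood apart from the other libraries of its group, with DDX58 at 3.19 times and IFIH1 at 2.57 times the mean of replicates 1 and 3, so U937 results are also given without it where that changes a call or a direction or moves a fold or a count of calls by over 1.5 times. The labels do not say that replicates were separate cultures, so the p-values reflect only how far these samples spread, which may be technical. In bulk RNA fewer cells making an RNA and less of that RNA per cell cannot be told apart.

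On GRCh38 (GENCODE v29), the IFIH1 gene runs over chr2:162267079-162318703 and DDX58 over chr9:32455705-32526324, both on the minus strand. DHX58 lies at chr17:42101404-42112733 (minus strand) and MAVS at chr20:3846799-3876123 (plus strand). MB21D1 lies at chr6:73413515-73452276 and TMEM173 at chr5:139475534-139482935, both on the minus strand. IFI16 (chr1:158999968-159055155, plus strand) and AIM2 (chr1:159062484-159147096, minus strand) are the only members on 1 chromosome, as neighbours that point towards each other. The deposited counts are 1 value per gene, and 7 of the 8 share no exonic base with another gene in these models.

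Promoter sequence of 5 of the 8 genes was at hand (RefSeq, GRCh38.p14, the 250 bases before each RefSeq gene start), and DHX58, TMEM173 and MB21D1 had no entry. These starts differ from the ends of the GENCODE v29 spans given above. The windows of IFIH1, DDX58 and MAVS reach partly into their spans, and those of IFI16 and AIM2 lie wholly inside them. Positions below are therefore relative to the RefSeq start only. The sequences of the sensors whose mRNA moved most are shown with the matches found on either strand in capitals, written from the far end to the gene start on the coding strand. The motifs searched were the repeat bound by interferon-stimulated and IRF factors, GAAANNGAAA, and the AP-1 motif TGANTCA. A version of the repeat with a gap of 1 base, GAAANGAAA, was added after the sequences had been seen. A match on the other strand reads as the reverse complement.
IFIH1, chr2:162318685-162318934, minus strand: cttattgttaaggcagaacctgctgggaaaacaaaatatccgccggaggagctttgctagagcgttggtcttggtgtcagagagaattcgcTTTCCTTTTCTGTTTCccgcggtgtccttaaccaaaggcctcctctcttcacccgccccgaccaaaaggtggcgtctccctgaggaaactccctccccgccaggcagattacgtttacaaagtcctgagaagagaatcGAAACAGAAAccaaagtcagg
DDX58, chr9:32526197-32526446, minus strand: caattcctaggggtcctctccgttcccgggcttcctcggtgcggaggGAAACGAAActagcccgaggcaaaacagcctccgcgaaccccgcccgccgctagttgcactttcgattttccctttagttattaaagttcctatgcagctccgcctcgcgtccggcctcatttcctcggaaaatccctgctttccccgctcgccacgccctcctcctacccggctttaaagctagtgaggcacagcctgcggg
IFI16, start 2, chr1:159009657-159009906, plus strand: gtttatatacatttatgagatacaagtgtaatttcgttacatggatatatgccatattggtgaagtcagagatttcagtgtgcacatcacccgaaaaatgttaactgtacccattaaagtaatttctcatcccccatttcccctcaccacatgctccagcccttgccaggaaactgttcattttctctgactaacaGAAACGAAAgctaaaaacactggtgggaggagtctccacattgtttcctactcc
AIM2, chr1:159076767-159077016, minus strand: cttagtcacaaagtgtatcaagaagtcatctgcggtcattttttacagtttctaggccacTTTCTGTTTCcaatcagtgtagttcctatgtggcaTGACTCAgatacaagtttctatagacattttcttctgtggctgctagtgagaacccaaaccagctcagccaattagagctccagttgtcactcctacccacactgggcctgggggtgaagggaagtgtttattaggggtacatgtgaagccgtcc

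IFIH1 held 3 matches to the repeat with a gap of 2 bases, 1 of them 21 to 12 bases before the start and an overlapping pair that begins 159 bases before it. AIM2 held 1 such match, from 190 to 181 bases before its start, and 1 match to the AP-1 motif from 155 to 149 bases before it. DDX58 and the second start of IFI16 held only the version with a gap of 1 base, from 203 to 195 and from 54 to 46 bases before the start. Neither MAVS nor the first start of IFI16 held any of the 3. Over all 35116 promoters of the same length, GAAANNGAAA was found in 3.02%, GAAANGAAA in 2.69% and TGANTCA in 6.57%. A match describes the letters in this window and says nothing about binding.

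**Figure D1:**
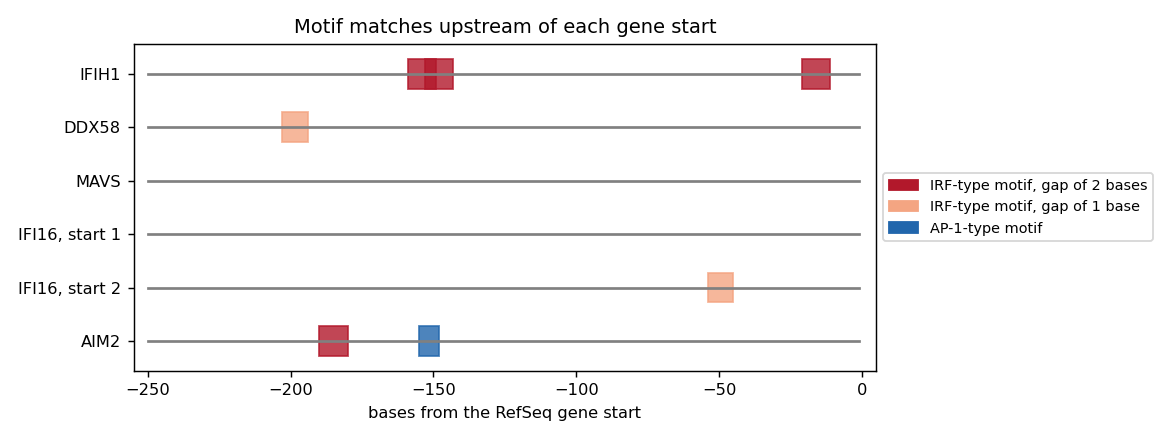
Positions of the motif matches in the 250 bases before each RefSeq gene start, on an axis in bases from the start (right end). IFIH1 has 3 matches to the IRF-type motif with a gap of 2 bases and AIM2 has 1 beside an AP-1-type match; MAVS and the first start of IFI16 have none.

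In ML1, prexasertib raised 6 of the 8 genes and lowered none. The background was 25.3% of tested genes called higher and 23.5% called lower. The 3 RNA sensors rose 23.2- to 38.2-fold, IFI16 rose 10.8-fold and AIM2 268-fold, while MB21D1 rose 1.37-fold. The adaptors MAVS and TMEM173 were not called. The median log2 fold change was 3.98 over the 8 genes and 0.025 over all tested genes.

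IFIH1 encodes MDA5, which binds long double-stranded RNA. It was at 397, 261 and 344 CPM in ML1 with prexasertib and at 7.18, 9.10 and 9.96 CPM in ML1 with diluent. Every treated library lay far above every diluent library, and the log2 fold change was 5.25 ± 0.38 (SE, edgeR quasi-likelihood test, adjusted p = 2.1e-08). DDX58 encodes RIG-I, which recognises short double-stranded RNA with uncapped ends. It stood at 256, 198 and 205 CPM with prexasertib and at 7.76, 10.7 and 9.84 CPM with diluent. Again the groups were far apart, with a log2 fold change of 4.54 ± 0.37 (adjusted p = 9.3e-08 by edgeR). DHX58 encodes LGP2, which lacks the signalling domains of its relatives and modulates them, and it measured 292, 191 and 299 CPM with prexasertib and 9.32, 9.43 and 9.22 CPM with diluent. Its diluent libraries were nearly level, and it rose by 4.80 ± 0.44 on the log2 scale (adjusted p = 3.2e-07 by edgeR).

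MAVS, the mitochondrial adaptor on which the RNA sensors converge, was at 296, 388 and 361 CPM in ML1 with prexasertib and at 366, 451 and 434 CPM with diluent. The groups overlapped, and the log2 fold change of -0.26 ± 0.17 did not pass the test (adjusted p = 0.2 by edgeR), with a 95% interval from -0.61 to 0.09. TMEM173, which encodes the adaptor STING, was at 202, 298 and 271 CPM with prexasertib and at 292, 309.5 and 304 CPM with diluent. Treated replicate 1 was the lowest library and replicate 2 lay within the diluent range. The log2 fold change was -0.23 ± 0.13 (adjusted p = 0.14 by edgeR), which was called with a replicate block (-0.25, adjusted p = 0.047) and without ML1 prexasertib replicate 2 (-0.37, adjusted p = 0.028).

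MB21D1 encodes cGAS, the enzyme that turns DNA binding into a second messenger. It was at 59.1, 60.3 and 56.7 CPM in ML1 with prexasertib and at 36.9, 46.9 and 44.8 CPM with diluent. The groups did not overlap, and the change of 0.45 ± 0.14 was called (adjusted p = 0.011 by edgeR), but not without ML1 diluent replicate 1 (0.35, adjusted p = 0.068). In the gene models MB21D1 shares 180 exonic bases, 4.33% of its exonic length, with DDX43 on the opposite strand, and the kit does not mark strand, so reads there cannot be assigned to either gene.

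IFI16, a DNA-binding protein of the HIN200 family, was at 329, 192 and 248 CPM in ML1 with prexasertib and at 23.4, 23.5 and 24.4 CPM with diluent. All treated libraries lay above all diluent libraries, with a log2 fold change of 3.43 ± 0.22 (adjusted p = 1.2e-09 by edgeR). AIM2, the HIN200 member that nucleates an inflammasome on DNA, was at 23.7, 8.98 and 17.5 CPM with prexasertib and at 0.0340, 0.0475 and 0.107 CPM with diluent. The diluent libraries held 2, 4 and 6 AIM2 counts, so the size of its rise, 8.06 ± 0.71 (adjusted p = 7.2e-08 by edgeR), rests on a denominator of few counts.

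**Figure D2:**
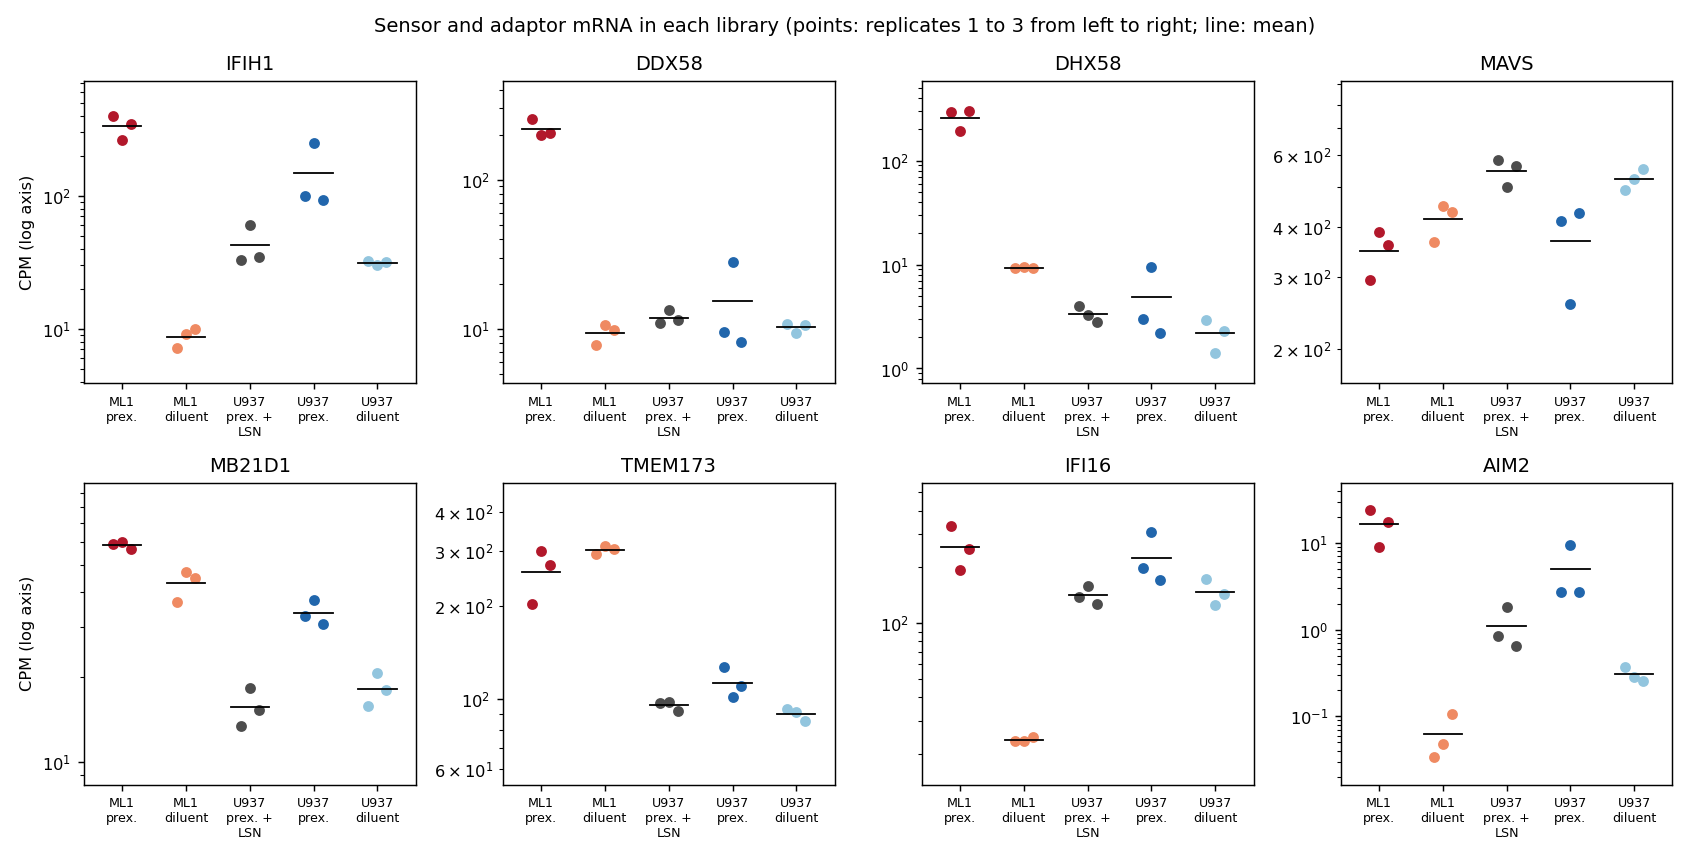
Level of each gene in every library, in CPM on a log axis that differs between panels; points are replicates 1 to 3 from left to right and lines are group means. In ML1 with prexasertib IFIH1, DDX58, DHX58, IFI16 and AIM2 lie far above diluent, and in U937 with prexasertib replicate 2 is the highest point for the same 5 genes.

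In U937, prexasertib raised IFIH1, MB21D1, IFI16 and AIM2 and lowered MAVS, against a background of 18.3% of tested genes called higher and 12.8% called lower. AIM2 rose 16.1-fold, IFIH1 4.71-fold, MB21D1 1.86-fold and IFI16 1.53-fold. DDX58 and DHX58, which rose over 20-fold in ML1, were not called. The median over the 8 genes was 0.75, and over all tested genes it was -0.0012. Without prexasertib replicate 2 the calls were 3 higher (IFIH1, MB21D1 and AIM2) and 0 lower.

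IFIH1 was at 100.2, 249 and 93.4 CPM in U937 with prexasertib and at 32.2, 30.3 and 31.6 CPM in U937 with diluent. All treated libraries exceeded all diluent libraries, and replicate 2 was the highest. The log2 fold change was 2.23 ± 0.33 (adjusted p = 0.00023 by edgeR) and was 1.60 without replicate 2 (adjusted p = 8.3e-05). DDX58 was at 9.54, 28.3 and 8.18 CPM with prexasertib and at 10.8, 9.36 and 10.7 CPM with diluent. Replicate 2 alone lay above diluent, and the other 2 treated libraries lay within or below the diluent range. Its log2 fold change was 0.57 ± 0.33 (adjusted p = 0.2 by edgeR), and it turned to -0.24 without replicate 2 (adjusted p = 0.3), while without prexasertib replicate 3 it was called (0.87, adjusted p = 0.03).

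DHX58 was at 3.00, 9.51 and 2.18 CPM with prexasertib and at 2.90, 1.42 and 2.31 CPM with diluent. As with DDX58, replicate 2 was far above the rest and replicate 3 lay within the diluent range. The log2 fold change of 1.14 ± 0.43 missed the threshold (adjusted p = 0.054 by edgeR) and was 0.19 without replicate 2 (adjusted p = 0.65). It was called without prexasertib replicate 1 (1.36, adjusted p = 0.038) or replicate 3 (1.48, adjusted p = 0.0081), and with the stricter low-count filter (1.24, adjusted p = 0.039).

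MAVS was at 414, 257 and 432 CPM in U937 with prexasertib and at 492, 524 and 555 CPM with diluent. All treated libraries lay below all diluent libraries, replicate 2 the most. It fell by 0.51 ± 0.17 on the log2 scale (adjusted p = 0.028 by edgeR). The call was lost without prexasertib replicate 2 (-0.33, adjusted p = 0.11), without diluent replicate 3 (-0.51, adjusted p = 0.066) and in a fit to the groups compared (-0.49, adjusted p = 0.078).

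TMEM173 was at 127, 102 and 111 CPM with prexasertib and at 93.3, 91.0 and 85.3 CPM with diluent. The groups did not overlap, but the log2 fold change of 0.33 ± 0.13 missed the threshold (adjusted p = 0.054 by edgeR). It passed with upper-quartile scaling (0.38, adjusted p = 0.027), with the stricter filter (0.42, adjusted p = 0.013) and with a replicate block (0.33, adjusted p = 0.017). MB21D1 was at 32.9, 37.3 and 30.7 CPM with prexasertib and at 15.8, 20.6 and 18.0 CPM with diluent. Here the treated libraries were close to each other and all above diluent. It rose by 0.89 ± 0.14 (adjusted p = 0.00023 by edgeR), and by 0.79 without replicate 2 (adjusted p = 0.0016).

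IFI16 was at 197, 306 and 169 CPM with prexasertib and at 172, 125 and 143 CPM with diluent. Treated replicate 3 lay below diluent replicate 1, so the groups overlapped. Its log2 fold change was 0.61 ± 0.20 (adjusted p = 0.03 by edgeR). That call was lost without prexasertib replicate 2 (0.29, adjusted p = 0.27), without diluent replicate 2 (0.47, adjusted p = 0.13) or 3 (0.55, adjusted p = 0.097), and in the fit to the groups compared (0.63, adjusted p = 0.059). AIM2 was at 2.75, 9.55 and 2.71 CPM with prexasertib and at 0.372, 0.288 and 0.257 CPM with diluent. Each treated library exceeded each diluent library. It rose by 4.01 ± 0.57 (adjusted p = 0.00011 by edgeR), and by 3.10 without replicate 2 (adjusted p = 0.0002).

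**Figure D3:**
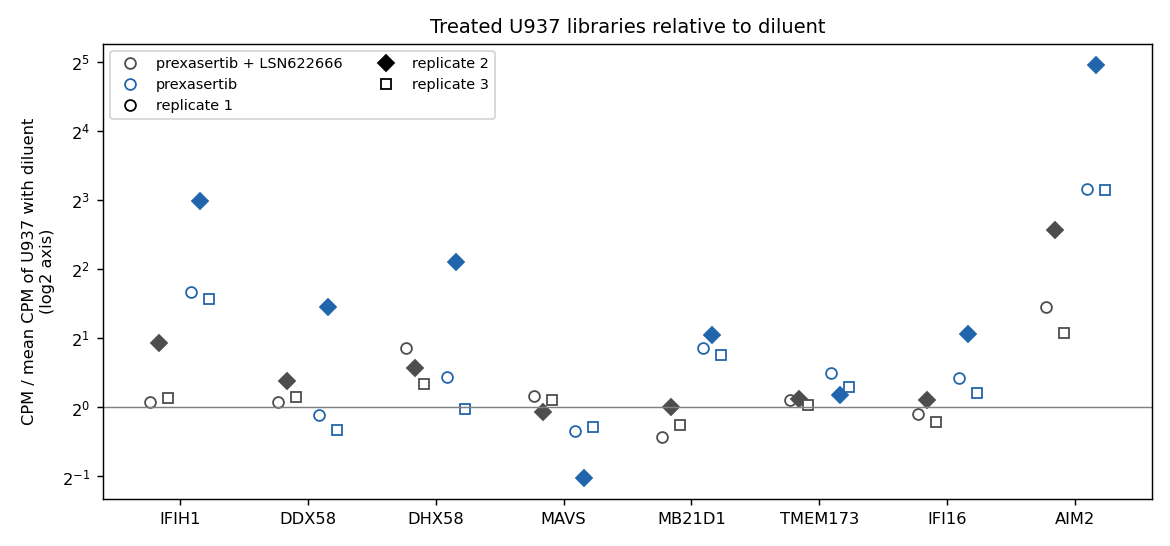
Each treated U937 library as a ratio to the mean CPM of U937 with diluent, on a log2 axis, with the combination in grey left of prexasertib in blue. Filled diamonds are replicate 2, which in the prexasertib group is highest for IFIH1, DDX58, DHX58, MB21D1, IFI16 and AIM2 and lowest for MAVS and TMEM173.

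The effect of prexasertib in U937 was set against its effect in ML1 by an interaction term. Of the 8 genes, 5 had a lower and 1 a higher effect in U937, against a background of 12.3% of tested genes lower and 12.4% higher. The difference on the log2 scale (U937 minus ML1) was -3.96 ± 0.48 for DDX58 (adjusted p = 2e-05 by edgeR), -3.67 ± 0.58 for DHX58 (0.00026) and -3.02 ± 0.46 for IFIH1 (0.00017). For the DNA-binding pair it was -4.06 ± 0.94 for AIM2 (adjusted p = 0.0041 by edgeR) and -2.82 ± 0.29 for IFI16 (1.5e-06). These 5 remained called in all 19 alternatives run for this comparison. Without U937 prexasertib replicate 2 the differences were larger, at -4.79 for DDX58, -4.62 for DHX58, -3.66 for IFIH1 and -4.97 for AIM2 (adjusted p of 3e-10 to 0.0001 by edgeR), and -3.14 for IFI16. For TMEM173 the difference was 0.57 ± 0.18 (adjusted p = 0.028 by edgeR), a call lost in 6 of the fits that left out 1 library. These were the fits without ML1 diluent replicate 2 (adjusted p = 0.063) or 3 (0.057), ML1 prexasertib replicate 1 (0.06), U937 diluent replicate 2 (0.064) or 3 (0.1), or U937 prexasertib replicate 1 (0.1). For MB21D1 the difference of 0.44 ± 0.20 was not called (adjusted p = 0.11 by edgeR) except with a replicate block (0.44, adjusted p = 0.028). MAVS had a difference of -0.25 ± 0.23 (adjusted p = 0.49 by edgeR), with a 95% interval from -0.74 to 0.24.

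Adding LSN622666 to prexasertib in U937 lowered IFIH1, MB21D1, IFI16 and AIM2 and raised MAVS relative to prexasertib alone. The background was 17.1% of tested genes called lower and 11.9% called higher. It depended on the scaling, since with upper-quartile factors 2560 genes were called lower and 2633 higher, in place of 2947 and 2048. AIM2 was 4.55-fold lower, IFIH1 3.47-fold, MB21D1 2.15-fold and IFI16 1.59-fold lower, and MAVS was 1.5-fold higher. The median over the 8 genes was -0.61, and over all tested genes it was 0.0074. Without prexasertib replicate 2 the calls were 3 lower (IFIH1, MB21D1 and AIM2) and 0 higher. That fit kept combination replicate 2, the highest of its group for IFIH1, DDX58, TMEM173, MB21D1, IFI16 and AIM2 and the lowest for MAVS. No fit left out replicate 2 of each group together, so values below without prexasertib replicate 2 carry this limit. The comparison of combination and prexasertib shares its prexasertib libraries with the comparison of prexasertib and diluent, so opposite directions in the pair are not independent.

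IFIH1 was at 33.1, 60.1 and 34.6 CPM with the combination, against 100.2, 249 and 93.4 CPM with prexasertib alone. Replicate 2 was the highest in both groups, and no libraries overlapped. The log2 fold change was -1.79 ± 0.32 (adjusted p = 0.00098 by edgeR), and -1.18 without prexasertib replicate 2 (adjusted p = 0.0012). DDX58 was at 10.9, 13.4 and 11.4 CPM with the combination, against 9.54, 28.3 and 8.18 CPM with prexasertib. The combination libraries lay between the prexasertib ones. The change was -0.36 ± 0.33 (adjusted p = 0.43 by edgeR) and 0.43 without prexasertib replicate 2 (adjusted p = 0.064). DHX58, at 4.0, 3.30 and 2.80 CPM with the combination, likewise lay within the prexasertib range, with a change of -0.54 ± 0.41 (adjusted p = 0.34 by edgeR) and of 0.38 without prexasertib replicate 2 (adjusted p = 0.33).

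MAVS was at 586, 499.9 and 565 CPM with the combination, against 414, 257 and 432 CPM with prexasertib. Every combination library was above every prexasertib library, with a log2 fold change of 0.58 ± 0.17 (adjusted p = 0.014 by edgeR). Without prexasertib replicate 2 it was 0.39 and no longer called (adjusted p = 0.068). TMEM173 was at 97.3, 98.2 and 91.8 CPM with the combination, all below the 127, 102 and 111 CPM with prexasertib. That change of -0.24 ± 0.13 did not pass (adjusted p = 0.16 by edgeR). MB21D1 was at 13.4, 18.2 and 15.2 CPM with the combination, against 32.9, 37.3 and 30.7 CPM with prexasertib. It fell in a clean split of the libraries, by 1.11 ± 0.14 (adjusted p = 4.2e-05 by edgeR), and by 1.02 without prexasertib replicate 2 (adjusted p = 0.0002).

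IFI16 was at 138, 159 and 126 CPM with the combination, against 197, 306 and 169 CPM with prexasertib. The libraries did not overlap, and the log2 fold change was -0.67 ± 0.20 (adjusted p = 0.02 by edgeR). That call was lost without prexasertib replicate 2 (-0.37, adjusted p = 0.16), without combination replicate 1 (-0.65, adjusted p = 0.055) or 3 (-0.60, adjusted p = 0.08), and in the fit to the groups compared (-0.67, adjusted p = 0.054). AIM2 was at 0.836, 1.82 and 0.644 CPM with the combination, against 2.75, 9.55 and 2.71 CPM with prexasertib. All combination libraries were lower. The log2 fold change was -2.19 ± 0.49 (adjusted p = 0.0036 by edgeR), and -1.31 without prexasertib replicate 2 (adjusted p = 0.031).

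Against diluent, the combination left 0 of the 8 genes called by edgeR, where 6.88% of tested genes were called higher and 4.11% lower. With upper-quartile scaling these splits over all genes were 1528 higher and 236 lower, in place of 1186 and 709, and the median of all genes shifted by 0.106 on the log2 scale. AIM2, at 0.836, 1.82 and 0.644 CPM with the combination and 0.372, 0.288 and 0.257 CPM with diluent, was the 1 gene with an unadjusted p under 0.05. Every combination library was above every diluent library, and its log2 fold change was 1.82 ± 0.57 (adjusted p = 0.051 by edgeR). It was called by DESeq2 (1.82, adjusted p = 0.029), with upper-quartile scaling (1.92, adjusted p = 0.042), with a replicate block (1.72, adjusted p = 0.0033), in the fit to the groups compared (1.84, adjusted p = 0.03) and without combination replicate 3 (2.09, adjusted p = 0.041). The other 7 genes had log2 fold changes between -0.21 (MB21D1) and 0.59 (DHX58), with adjusted p-values of 0.33 to 0.88. For MAVS the 95% interval ran from -0.28 to 0.42, for TMEM173 from -0.18 to 0.36 and for IFI16 from -0.48 to 0.37.

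**Figure D4:**
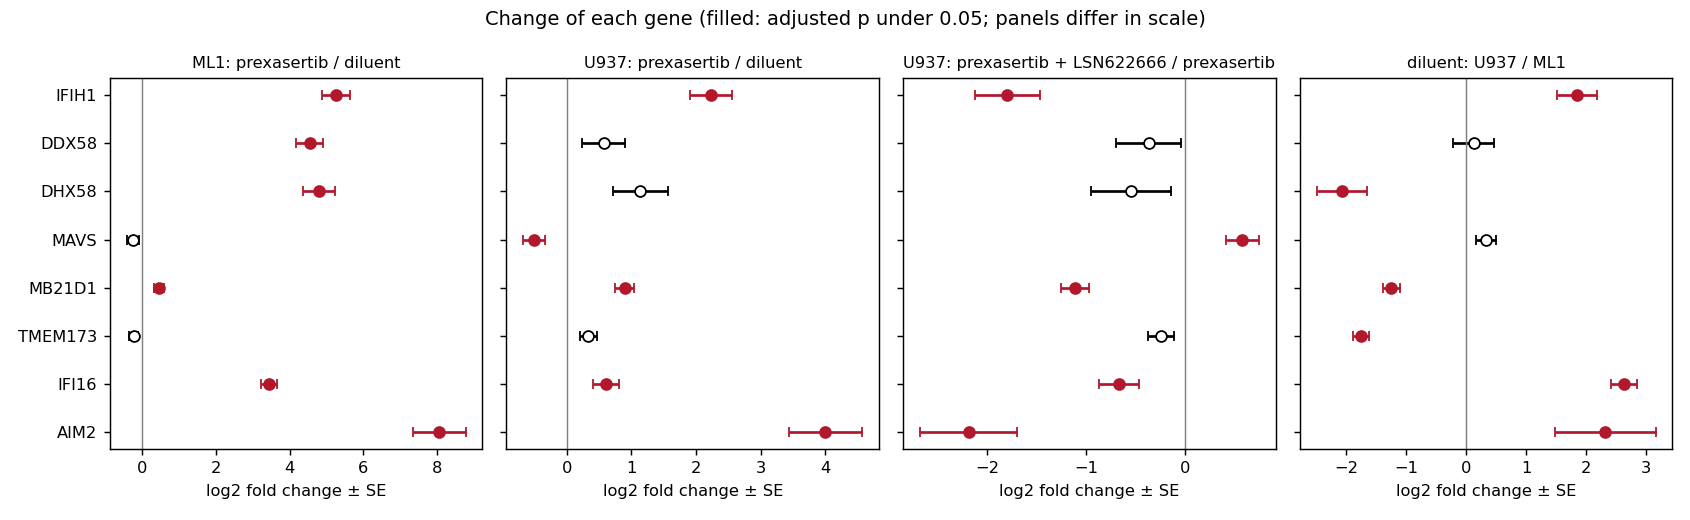
Log2 fold change ± SE of each gene in 4 comparisons, on horizontal axes that differ in scale; filled points have an adjusted p under 0.05. In ML1 6 genes lie to the right at adjusted p under 0.05, in U937 4 lie to the right and MAVS to the left, and with LSN622666 added IFIH1, MB21D1, IFI16 and AIM2 lie to the left and MAVS to the right.

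With diluent, U937 and ML1 carried different amounts of 6 of the 8 mRNAs. IFIH1, IFI16 and AIM2 were higher in U937, where 32.0% of all tested genes were called higher, and DHX58, TMEM173 and MB21D1 were lower, where 29.4% were called lower. IFI16 was 6.17-fold higher in U937 (log2 fold change 2.63 ± 0.21, adjusted p = 7.5e-09 by edgeR) and IFIH1 3.58-fold higher (1.84 ± 0.33, adjusted p = 0.00018). TMEM173 was 3.36-fold lower in U937 (-1.75 ± 0.13, adjusted p = 2.2e-09 by edgeR), DHX58 4.19-fold lower (-2.07 ± 0.42, adjusted p = 0.00057) and MB21D1 2.37-fold lower (-1.24 ± 0.14, adjusted p = 5.2e-07). None of these 5 genes had libraries of the 2 lines that overlapped. AIM2 was 4.99-fold higher in U937 (2.32 ± 0.83, adjusted p = 0.023 by edgeR), from few counts in ML1. Its call was lost when no filter was applied (adjusted p = 0.059), and when leaving out ML1 diluent replicate 1 (0.073) or 2 (0.081) or U937 diluent replicate 1 (0.079). DDX58 was at 10.8, 9.36 and 10.7 CPM in U937 and 7.76, 10.7 and 9.84 CPM in ML1, with overlapping libraries, and its difference of 0.12 ± 0.33 (adjusted p = 0.77 by edgeR) had a 95% interval from -0.59 to 0.84. MAVS was at 492 to 555 CPM in U937 and 366 to 451 CPM in ML1, a difference of 0.33 ± 0.17 that was not called (adjusted p = 0.095 by edgeR), although it was in the fit to the groups compared (0.34, adjusted p = 0.012).

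Levels of different genes were set side by side as CPM per kilobase of exonic length in GENCODE v29 gene models. In ML1 with prexasertib the order was DHX58 (67.8 ± 15.7 CPM per kb, SD, n = 3), TMEM173 (66.7 ± 12.9), IFIH1 (65.4 ± 13.4), DDX58 (50.4 ± 7.33), IFI16 (48.4 ± 13), MAVS (29.6 ± 4.01), MB21D1 (14.1 ± 0.442) and AIM2 (8.33 ± 3.69). The first 3 differed by less than their spread, and so did DDX58 and IFI16. In ML1 with diluent TMEM173 led at 78.4 ± 2.33 CPM per kb, with MAVS at 35.4 ± 3.82 and MB21D1 at 10.3 ± 1.27, and the other 5 genes were below 5 CPM per kb. IFIH1 and DHX58 were thus within the spread of TMEM173 per length with prexasertib and far below it with diluent.

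In U937 with the combination MAVS led per length (46.7 ± 3.80 CPM per kb), before IFI16 (26.6 ± 3.09) and TMEM173 (24.9 ± 0.904), which differed by less than their spread. In U937 with prexasertib the means of IFI16 (42.3 ± 13.7 CPM per kb), MAVS (31.2 ± 8.16), TMEM173 (29.4 ± 3.33) and IFIH1 (28.9 ± 17.3) did not differ beyond their spread over libraries. Replicate 2 was the highest library for IFI16 and IFIH1 and widened that spread. Within each of these libraries IFI16 (37.2, 57.8 and 32.0 CPM per kb) was above TMEM173 (33.0, 26.4 and 28.8) and IFIH1 (19.6, 48.8 and 18.3). With diluent the order was MAVS (44.5 ± 2.70 CPM per kb), IFI16 (27.7 ± 4.53), TMEM173 (23.3 ± 1.08) and IFIH1 (6.14 ± 0.190), where IFI16 and TMEM173 differed by less than their spread. MB21D1, DDX58, DHX58 and AIM2 were below IFIH1 in mean level per length in each of the 3 U937 groups.

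The patterns over all 15 libraries were compared by Pearson correlation of log2 CPM, as a description, since the points share groups and cell lines. IFIH1 and AIM2 were each other's closest gene among all tested (r = 0.989, n = 15), followed for both by SAT1, a polyamine catabolic enzyme, and NFKB2, an NF-kB subunit. DHX58 was closest to SAMD9 (r = 0.993), STAT2 (0.992) and TRIM22 (0.991), while DDX58 was closest to KNDC1, TYMP and MPEG1 (0.985 to 0.987). IFI16 was closest to GBP5 (0.988), SOD2 and ICAM1, and MB21D1 to ZCCHC8 (0.983), UBE2Q1 and GGNBP2. The adaptors had other partners, with TMEM173 closest to CACNB1 (0.99), HVCN1 and ENO2 and MAVS to ERCC2 (0.955), SH3YL1 and POMGNT1. Within the set DDX58 and DHX58 correlated at 0.942, and MAVS was negatively correlated with each of the other 7 genes, from -0.231 with IFI16 to -0.767 with MB21D1. By Spearman rank correlation DDX58 and DHX58 were at 0.654, and MAVS ran from -0.271 with DDX58 to -0.811 with MB21D1.

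The rest of the pathway was read from 8 lists with 81 genes, of which 78 were tested (ENPP1, IFNL2 and IFNL3 were not). With prexasertib 52 of the 78 rose and 11 fell in ML1 (median log2 fold change 1.08), where 25.3% of all tested genes were called higher and 23.5% lower. In U937 27 rose and 10 fell (median 0.19, or 0.14 with the 2 genes that had a group at 0 set to their bound), where 18.3% of all tested genes were called higher and 12.8% lower. The effect was lower in U937 for 38 and higher for 5, beside 12.3% and 12.4% of all tested genes. With LSN622666 added to prexasertib 6 were higher and 26 lower (median -0.28, or -0.25 with 1 gene at its bound), beside 11.9% and 17.1%. Against diluent the combination left 4 of the 78 higher and 2 lower, no larger a share than the 6.88% and 4.11% of all tested genes. The 4 were IRF7 (log2 fold change 1.26 ± 0.33, adjusted p = 0.026 by edgeR), IRF9 (1.09 ± 0.30, 0.029), GSDMD (0.54) and TYK2 (0.52). PRKRA (-0.57) and TOMM70A (-0.36) were the 2 lower. IRF9 lost the call without any 1 diluent library and without combination replicate 1 or 2. IRF7 lost it without diluent replicate 2 or 3 or combination replicate 1 or 2, and GSDMD without diluent replicate 2 or 3. TOMM70A lost it without diluent replicate 2 or 3 or combination replicate 1 or 3. With no low-count filter IRF7, IRF9 and TOMM70A lost it, and TOMM70A also with upper-quartile scaling, the stricter filter and the fit to the groups compared. Without U937 prexasertib replicate 2, 18 genes rose and 2 fell in U937 with prexasertib (10.3% and 5.04% of all tested genes), and 5 were higher and 15 lower in the combination against prexasertib (6.32% and 10.3%). That fit kept all combination libraries. The list counts that follow are to be read beside these shares, since in lists of 9 to 11 genes a few calls each way are near them. The myeloid marker sums given above moved with treatment in ML1, LYZ the most in CPM and MPO the other way, and their part in these results was not tested.

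Among cofactors and brakes of the RNA sensors, 2 of 9 rose and 4 fell in ML1, where 25.3% and 23.5% of all tested genes did, so the number that rose was near the background. TRIM25, a ubiquitin ligase that promotes RIG-I signalling, rose by 2.15 ± 0.19 (adjusted p = 5.4e-08 by edgeR) and the kinase RIOK3 by 1.14 ± 0.14, while PRKRA (PACT), which stimulates RIG-I family sensors, fell by 0.98 ± 0.11. In U937 2 rose and 1 fell, with RIOK3 at 0.44 ± 0.14, ZCCHC3, a cofactor of RNA sensors and of cGAS, at 0.33 ± 0.12 and PRKRA at -0.35 ± 0.11 (adjusted p = 0.024 to 0.045 by edgeR). None of these 3 was called without U937 prexasertib replicate 2 (adjusted p of 0.2 for RIOK3, 0.18 for ZCCHC3 and 0.087 for PRKRA) or in the fit to the groups compared. ZCCHC3 also lost its call without any other 1 of the U937 libraries compared (adjusted p of 0.06 to 0.17 by edgeR). RIOK3 lost it without any 1 diluent library (0.054 to 0.081) and PRKRA without diluent replicate 1 (0.055). In the combination against prexasertib RIOK3 (-0.63) and ZCCHC3 (-0.52) fell and NLRX1, a mitochondrial protein reported to restrain MAVS, rose (0.53, adjusted p = 0.044 by edgeR), the last not without U937 prexasertib replicate 2 (0.37, adjusted p = 0.2). NLRX1 also lost its call without prexasertib replicate 3 (adjusted p = 0.062 by edgeR), combination replicate 1 (0.22) or 3 (0.09), and in the fit to the groups compared (0.098).

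Of the kinases, adaptors and transcription factors below the sensors, 8 of 10 rose and 0 fell in ML1, led by IRF7, the interferon-amplifying transcription factor (4.39 ± 0.37, adjusted p = 1e-07 by edgeR), the kinase IKBKE (1.63 ± 0.16) and the kinase adaptor AZI2 (1.31 ± 0.13). In U937 4 rose and 0 fell. IRF7 was at 26.5, 71.9 and 21.1 CPM in U937 with prexasertib, against 9.46, 8.28 and 7.27 CPM with diluent, and rose by 2.25 ± 0.34 (adjusted p = 0.00027 by edgeR), or by 1.48 without prexasertib replicate 2. The adaptors TANK and TRAF6 rose by 0.74 each. With LSN622666 added 6 of the 10 were lower, or 2 without prexasertib replicate 2, among them TANK (-0.72), TRAF6 (-0.65) and AZI2 (-0.46, lost without prexasertib replicate 2 at adjusted p = 0.079).

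Regulators of STING and cGAS went both ways, 3 of 9 higher and 3 lower in ML1, 1 higher and 3 lower in U937, and 0 higher and 1 lower in the combination against prexasertib. The ML1 counts and the 1 higher in U937 were near the background given above, and without U937 prexasertib replicate 2 the U937 counts were 1 higher and 0 lower, and those of the combination against prexasertib 1 higher and 1 lower. In ML1 TRIM56, a ubiquitin ligase for cGAS and STING, rose by 1.16 ± 0.12, and SLC19A1, a folate carrier that also imports cyclic dinucleotides, fell by 1.85 ± 0.20. BANF1, a DNA-bridging protein that competes with cGAS, fell by 0.94 ± 0.12 in ML1 and by 0.37 ± 0.12 in U937 (adjusted p = 6.8e-06 and 0.034 by edgeR), the U937 call being lost without prexasertib replicate 2 (adjusted p = 0.11). LRRC8A, a channel subunit that passes cyclic dinucleotides, was at 46.5, 65.4 and 43.9 CPM in U937 with prexasertib and 31.5, 36.3 and 32.5 CPM with diluent. It rose by 0.64 ± 0.13 (adjusted p = 0.0024 by edgeR) and fell by 0.75 ± 0.13 in the combination against prexasertib.

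Nucleases and editors that remove or mark nucleic acids were also divided, 5 of 10 higher and 4 lower in ML1, 1 higher and 4 lower in U937, and 2 higher and 1 lower with LSN622666 added. Without U937 prexasertib replicate 2, 1 rose and 1 fell in U937. TREX1, the cytosolic DNA exonuclease, was at 99.0, 119 and 124 CPM in ML1 with prexasertib and 31.0, 35.1 and 33.5 CPM with diluent, a rise of 1.78 ± 0.15 (adjusted p = 2.4e-08 by edgeR). RNASEH2A, the catalytic subunit of the ribonuclease that clears RNA-DNA hybrids, moved the other way, at 17.2, 22.8 and 24.8 CPM with prexasertib and 73.7, 79.7 and 72.7 CPM with diluent, a fall of 1.80 ± 0.14 (adjusted p = 1.7e-08 by edgeR). In U937 SAMHD1, a dNTP hydrolase, rose by 1.59 ± 0.32 and by 0.83 without prexasertib replicate 2. In the combination against prexasertib it was the 1 lower gene (-1.09, adjusted p = 0.017 by edgeR), a call lost without that replicate (-0.35, adjusted p = 0.1).

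Other nucleic acid sensors rose in 10 of 11 cases in ML1 and in 6 of 11 in U937, and none fell. Without U937 prexasertib replicate 2 the U937 count was 2 of 11, and OAS3, a further synthase of this family, moved to 0.47 (adjusted p = 0.077 by edgeR) in place of 1.16 (adjusted p = 0.0089). OAS2, a synthase of the messenger that activates RNase L, was at 1386, 965 and 1154 CPM in ML1 with prexasertib and 1.68, 1.5 and 0.781 CPM with diluent. The RNA-activated kinase EIF2AK2 (PKR) rose by 2.59 ± 0.20 in ML1 (adjusted p = 1.1e-08 by edgeR). In U937 OASL, a relative that enhances RIG-I signalling, was at 11.0, 96.8 and 13.2 CPM with prexasertib and 3.15, 2.11 and 2.07 CPM with diluent. Replicate 2 again stood far above the rest. The log2 fold change of 4.03 ± 0.78 (adjusted p = 0.0029 by edgeR) was 2.27 without it. With LSN622666 added 0 of 11 were higher and 3 lower (OASL, DDX60 and OAS1), and none of the 3 was called without prexasertib replicate 2 (adjusted p of 0.05 for OASL, 0.32 for DDX60 and 0.35 for OAS1).

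Of the inflammasome genes and HIN200 relatives, 5 of 9 rose and 0 fell in ML1, 1 rose and 1 fell in U937, and 2 were higher and 2 lower with LSN622666 added. IL1B, the cytokine that inflammasomes release, was at 51.5, 75.6 and 40.5 CPM in ML1 with prexasertib and 0.883, 1.09 and 0.799 CPM with diluent. It was at 15.6, 20.9 and 12.3 CPM in U937 with prexasertib and 5.01, 3.01 and 2.63 CPM with diluent. It rose in both lines, by 5.90 ± 0.34 in ML1 and 2.18 ± 0.29 in U937 (adjusted p = 3.3e-10 and 4.3e-05 by edgeR). CASP1, the inflammasome protease, rose by 1.66 ± 0.14 in ML1. PYCARD, which encodes the AIM2 adaptor ASC, fell by 0.53 ± 0.17 in U937 (adjusted p = 0.023 by edgeR) and was 0.57 ± 0.17 higher with LSN622666 added (adjusted p = 0.016), and neither call held without prexasertib replicate 2 (adjusted p of 0.11 and 0.087).

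Interferons and their most direct output genes rose in 10 of 10 tested cases in ML1 and in 8 of 10 in U937, and 7 of 10 were lower with LSN622666 added. CXCL10, a chemokine induced by interferon and NF-kB, was at 455, 323 and 278 CPM in ML1 with prexasertib and 0.340, 0.451 and 0.195 CPM with diluent. The U937 levels were 1.08, 2.82 and 1.22 CPM with the combination, 12.0, 28.1 and 15.8 CPM with prexasertib and 0.815, 1.85 and 1.03 CPM with diluent. Combination replicates 1 and 3 lay within the diluent range and replicate 2 above it, with a log2 fold change of -3.45 ± 0.40 against prexasertib (adjusted p = 4.3e-05 by edgeR). IFIT2, an interferon-induced RNA-binding protein, was at 75.4, 674 and 76.2 CPM in U937 with prexasertib and 9.28, 11.0 and 7.33 CPM with diluent. It rose by 4.90 on the log2 scale (adjusted p = 0.002 by edgeR), and by 3.01 without replicate 2 (adjusted p = 0.00015).

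The interferon genes themselves lay outside the naming rule and are given because they are the pathway's products, a choice made after their values were seen. IFNB1 had 1189, 512 and 833 counts in ML1 with prexasertib and 0, 6 and 0 counts with diluent. In U937 it had 5, 26 and 5 counts with the combination, 18, 57 and 25 counts with prexasertib and 0, 10 and 2 counts with diluent. IFNL1 had 356, 198 and 217 counts in ML1 with prexasertib and none with diluent. In U937 it had 0, 8 and 2 counts with the combination, 4, 38 and 11 counts with prexasertib and none with diluent. Both genes were far higher in treated ML1 libraries than in any U937 library.

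Genes of interferon receptor signalling rose in 9 of 10 cases in ML1 with 0 lower, and in U937 4 rose and 1 fell. USP18, an interferon-induced brake on the receptor, was at 374, 283 and 358 CPM in ML1 with prexasertib and 10.4, 9.78 and 8.60 CPM with diluent (log2 fold change 5.14 ± 0.23, adjusted p = 1.9e-11 by edgeR). STAT2, a transcription factor of the pathway, rose by 2.76 ± 0.18 in ML1. The calls in U937 were led by IRF9 (1.83 ± 0.30), the receptor inhibitor SOCS1 (2.27 ± 0.39) and IRF1 (0.89 ± 0.18). IRF9 was at 24.9, 58.8 and 19.9 CPM in U937 with prexasertib, replicate 2 the highest, and its rise was 1.18 without that replicate (adjusted p = 0.00019 by edgeR). With LSN622666 added 1 was higher and 4 lower (2 lower without prexasertib replicate 2), with log2 fold changes of -2.19 ± 0.38 for SOCS1 and -0.96 ± 0.18 for IRF1, while the kinase TYK2 was higher by 0.53 ± 0.09.

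**Figure D5:**
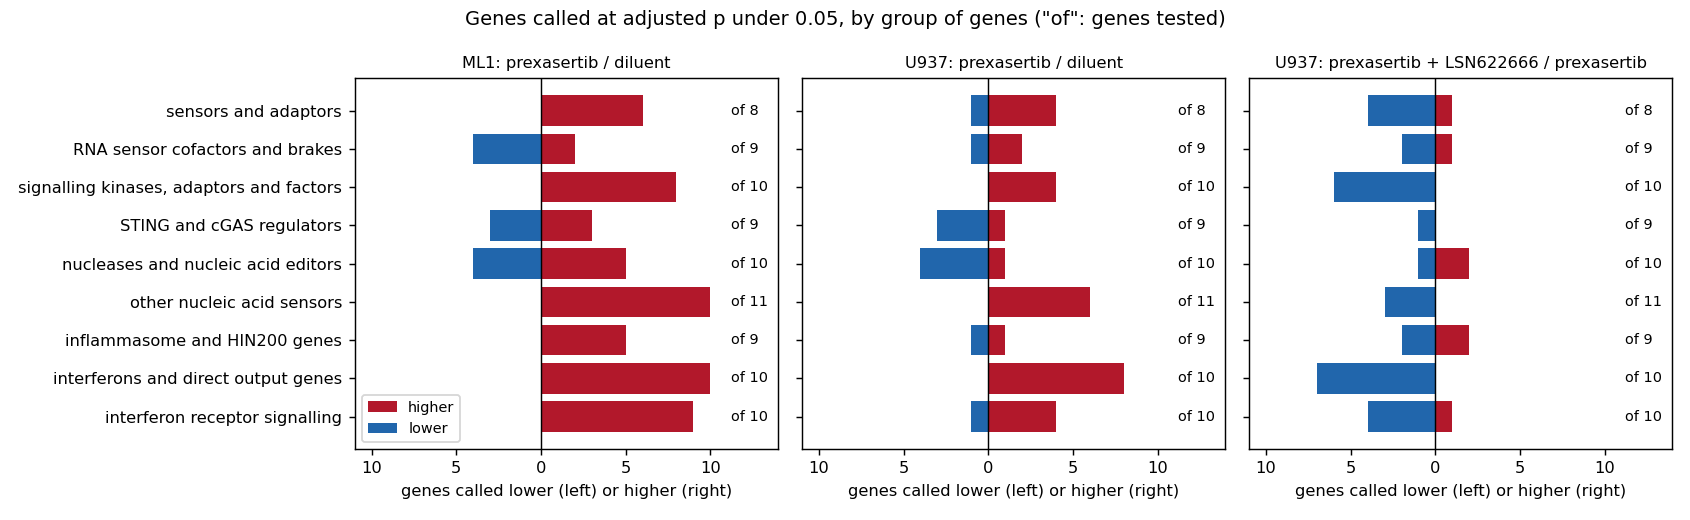
Number of genes called lower (left) and higher (right) at adjusted p under 0.05 in each gene group, out of the genes tested. In ML1 the interferon outputs (10 of 10), other sensors (10 of 11) and interferon receptor genes (9 of 10) lean to the right, and in the combination against prexasertib 7 of 10 outputs and 6 of 10 signalling genes lean to the left.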

How the data were processed

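RNA-seq was made from 15 libraries in 5 groups of 3. Per the labels' protocols, RNA came from RNeasy Mini columns and went into the TruSeq RNA Library Prep Kit v2, a kit without strand marks. What the authors deposited is a table of unnormalized counts of reads, 1 row per gene. Per the submitters' processing notes, the tools were featureCounts 1.4.6 (Subread), Bowtie2 2.2.6 and TopHat2 2.0.14, on hg38. For the annotation, strand setting and counting of mates, no statement was found: not given in the sources used here.

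Counts were analysed with edgeR 4.0.16 in R 4.3.3. Genes were kept by filterByExpr, scaled by TMM and fitted as 1 model with a mean per group (median biological coefficient of variation 0.163 on 10 residual degrees of freedom). Each of 6 contrasts was tested by robust quasi-likelihood, with p-values adjusted over the 17243 tested genes by Benjamini-Hochberg and calls at an adjusted p under 0.05. Intervals are at 95%. All 8 members are named. Pathway genes were named from up to 3 called genes with the smallest p in each pathway list and comparison. Not all genes so selected are described, and none is for U937 against ML1 with diluent. Genes named beyond that (IFNB1 and IFNL1) were chosen after their values were seen. A result the rule selects is not reported here, but counts and medians of its list include it. The members and lists were chosen with earlier results of these data known. A group with no counts was set to a floor of 3 counts over its libraries, which covers counting error only. Gene models are GENCODE v29 on GRCh38 and promoters RefSeq GRCh38.p14. The pipeline was tested on simulated data.

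Alternatives were DESeq2 1.42.0, edgeR with the size factors of DESeq2 or with upper-quartile scaling, every gene with a count kept, a stricter filter (5 CPM in 3 libraries), a fit to the groups compared, a replicate block, and leaving out each library. To see whether replicate numbers pair the libraries, each library's deviation from its group mean was correlated with that of the same-numbered library. Between combination and prexasertib libraries of the same number they were 0.409, 0.37 and 0.384, each over 0.1, the value taken here as a sign of possible pairing. The labels state no pairing, and libraries of different numbers were not correlated, so pairing by number is not shown. In the 4 other pairs of groups that were compared at least 1 was below 0.1. They were 0.386, 0.268 and 0.048 between combination and diluent libraries, and 0.317, 0.102 and 0.062 between prexasertib and diluent libraries of U937. In ML1 they were 0.161, 0.09 and 0.06, and between the lines with diluent 0.035, 0.034 and 0.063. Such values do not show that these libraries were unpaired, and pairs outside the comparisons were not checked.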

Additional observations from a re-analysis of the deposited data

Results flagged for a closer look

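The effect of prexasertib differed between U937 and ML1, by the interaction term, for 6 of the sensor genes and for the named pathway genes below. Each value is the log2 effect in U937 minus that in ML1. Among the sensors it was -3.02 for IFIH1, -3.96 for DDX58, -3.67 for DHX58, 0.57 for TMEM173, -2.82 for IFI16 and -4.06 for AIM2. Among cofactors it was -1.90 for TRIM25, 0.63 for PRKRA and -0.70 for RIOK3. In the signalling kinases and adaptors it was -1.46 for IKBKE, -1.40 for TRAF3 and -0.99 for AZI2. For STING and cGAS regulators it was -1.12 for TRIM56, 1.47 for SLC19A1 and 0.58 for BANF1. The BANF1 call was lost without ML1 diluent replicate 2 (adjusted p = 0.061 by edgeR) or ML1 prexasertib replicate 1 (0.058). It was also lost without U937 diluent replicate 1 (0.051) or 3 (0.083), or U937 prexasertib replicate 3 (0.064). Nucleases and editors had -1.56 for TREX1, -1.33 for ADAR and 1.37 for RNASEH2A. Other sensors had -2.66 for EIF2AK2, -8.06 for OAS2 and -3.15 for OAS3. Inflammasome and HIN200 genes had -1.93 for CASP1, -3.72 for IL1B and -1.26 for MNDA. Output genes had -3.93 for CCL5, -6.07 for CXCL10 and -6.01 for RSAD2, and receptor signalling genes had -4.82 for USP18 and -2.29 for STAT2. Without U937 prexasertib replicate 2, 7 of these differences moved by over 1.5 times in fold, to -3.66 for IFIH1, -4.79 for DDX58, -4.62 for DHX58, -4.97 for AIM2, -9.23 for OAS2, -3.84 for OAS3 and -6.64 for RSAD2, all still called. The genes with a positive value (TMEM173, PRKRA, SLC19A1, BANF1 and RNASEH2A) are those whose log2 fold change in ML1 was below 0.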

How the results depend on the processing

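For the 8 genes, of the values with another tool, scaling, filter, fit or block 319 kept direction and side of the threshold, 11 gained a call, 4 lost one and 2 turned direction. With 1 library left out 306 kept both, 5 gained, 19 lost and 6 turned. IFI16 in the combination against diluent turned to 0.0439 with upper-quartile scaling and 0.0404 with the stricter filter, and ranged from -0.19 to 0.055 with 1 library left out, turning without diluent replicate 1 and without combination replicate 3 (0.0124). MAVS there ranged from -0.0027, without combination replicate 1, to 0.13. Without prexasertib replicate 2, DDX58 in U937 with prexasertib turned (range -0.24 to 0.87), as did DDX58 (-0.66 to 0.43) and DHX58 (-0.89 to 0.38) in the combination against prexasertib. None of the turned values was called.

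Members called numbered 3 in place of 5 for U937 prexasertib in the fit to the groups compared. In the combination against diluent they numbered 1 in place of 0 with upper-quartile scaling, with the replicate block, in the fit to the groups compared and with DESeq2. In the fit to the groups compared 20 pathway genes were called in place of 37 for U937 prexasertib and 17 in place of 32 for the combination against prexasertib. In the combination against diluent 3 were called with no filter and 18 with the replicate block, in place of 6. With 1 library left out the members called ran from 3 to 7 (U937 prexasertib), 5 to 7 (ML1 prexasertib), 3 to 5 (combination against prexasertib), 0 to 1 (combination against diluent), 5 to 6 (interaction) and 5 to 6 (diluent). Pathway genes called ran, in the same order, from 20 to 38, 58 to 60, 20 to 34, 2 to 5, 40 to 46 and 49 to 53. Some calls given above as lost without U937 prexasertib replicate 2 were also lost without another library. These were BANF1 and PYCARD in U937 with prexasertib, and AZI2, SAMHD1, OASL, DDX60, OAS1 and PYCARD in the combination against prexasertib.

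In the combination against prexasertib, where the numbers may pair the libraries, the replicate block called 5 members, as without it, and DDX60 lost its call (-0.92, adjusted p = 0.089 by edgeR). The cause of these shifts was not tested. AIM2 with diluent, and IFNB1 and IFNL1 outside treated ML1, rest on few counts, which limits the size of their changes.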
